A study of Saccharomyces cerevisiae with 16 samples.

Results

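The change examined here is the one between 45 and 90 min after methionine was taken away from cultures of the budding yeast Saccharomyces cerevisiae. It was read from 8 of the 16 arrays of the study, 4 taken at 90 min and 4 at 45 min, with 1 array at each time in each of 4 lines, and it is the value at 90 min minus the value at 45 min in the same line. Per the series record, the lines named H, 170 and WT are hog1∆ cells with a plasmid that carries a HOG1 gene behind the MET3 promoter. The line named vec holds an empty plasmid in JBY13 cells and is the control. WT carries HOG1WT. The source label gives D170A for line H and D170A with F318L for line 170, while other labels call them H and D170A, so neither line is given a mutation here. All lines lost methionine at 0 min, and no array after 0 min is labelled as given methionine, so loss of methionine, time in culture and induction of the plasmid gene cannot be told apart within a line. No line and time was measured again, so every error below comes from the spread of changes over the lines, moderated by limma across genes. Such an error does not measure how cultures of 1 line vary.

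Yeast that runs out of methionine turns on the genes that take up sulfate and build methionine, and MET3, the ATP sulfurylase gene, is one of them, which is why its promoter serves as a switch. Hog1 is a stress-activated MAP kinase that answers high osmolarity, and its targets include genes of glycerol synthesis and stress defence. Growing cells make ribosomes from a large set of ribosome biogenesis and ribosomal protein genes, and each cell division runs through waves of transcription at G1/S, in S phase, in G2/M and at the exit from mitosis. Genes for poor nitrogen sources are held down by nitrogen catabolite repression while good sources last.

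Values are log2 processed intensities minus the 75th percentile of the array. That percentile lay between 5125.6 and 11304.4 intensity units on the 8 arrays and was higher at 90 min than at 45 min in each line. Between 93.4% and 98.5% of the spots were well above background. Each array at 90 min lay at place 3 of its row on the slide and each array at 45 min at place 2, so time and place cannot be told apart. Lines H and WT shared a slide, as did 170 and vec. The labels name no mating type. All 7 a-specific genes were well above background on all 8 arrays, as were 2 of 4 alpha-specific genes, while MF(ALPHA)1 was on 7 and MF(ALPHA)2 on 6. Levels ran from -2.86 (ASG7) to 3.02 (MFA1) for the a-specific genes. For the alpha-specific genes they ran from -8.96 (MF(ALPHA)2) to -2.69 (SAG1). In whole cultures, fewer cells of a kind and less RNA in each cell cannot be told apart.

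HOG1 itself and MET3, whose promoter drives it, were not called in the step. HOG1 stood at 5.44, 6.01, 5.50 and -2.12 at 90 min in lines H, 170, WT and vec, against 5.54, 6.12, 5.64 and -2.31 at 45 min, a change of -0.04 ± 0.09 over the 4 lines (limma, adjusted p = 0.74). The 3 lines with a HOG1 plasmid were far above vec at both times. MET3 stood at 2.32, 2.60, 1.32 and 2.73 at 90 min, against 2.65, 2.65, 2.71 and 1.44 at 45 min, in the same order. It was lower at 90 min in H, 170 and WT and higher in vec, and the mean change was -0.12 ± 0.40 (limma, adjusted p = 0.84).

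Of 6165 genes tested, 1918 changed from 45 to 90 min (31.1%; limma with the line as a block, adjusted p under 0.05), of which 1123 rose (18.2%) and 795 fell (12.9%). Changes were mostly small, and 120 of the called genes (1.95%) differed at least 2-fold. In the 45 min before, 4496 genes had changed (72.9%), 2078 of the called genes at least 2-fold. The standard deviation of the step over genes was 0.48, 0.50, 0.47 and 0.39 log2 units in H, 170, WT and vec, against 1.22, 1.27, 1.22 and 1.01 for the change from 0 to 45 min. The count rested on the spread among few arrays. Without line H 33 genes passed, without 170 296, without WT 793 and without vec 2210, and on the slide of 170 and vec alone 0 passed, with 1081 at an unadjusted p under 0.05. The share of called genes that rose was 58.6%, but 41.2% when arrays were centred on their median and 46.7% after quantile normalization. The genes as a whole are therefore given no direction. The median gene changed by 0.06, and by -0.01 with median scaling.

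**Figure D1:**
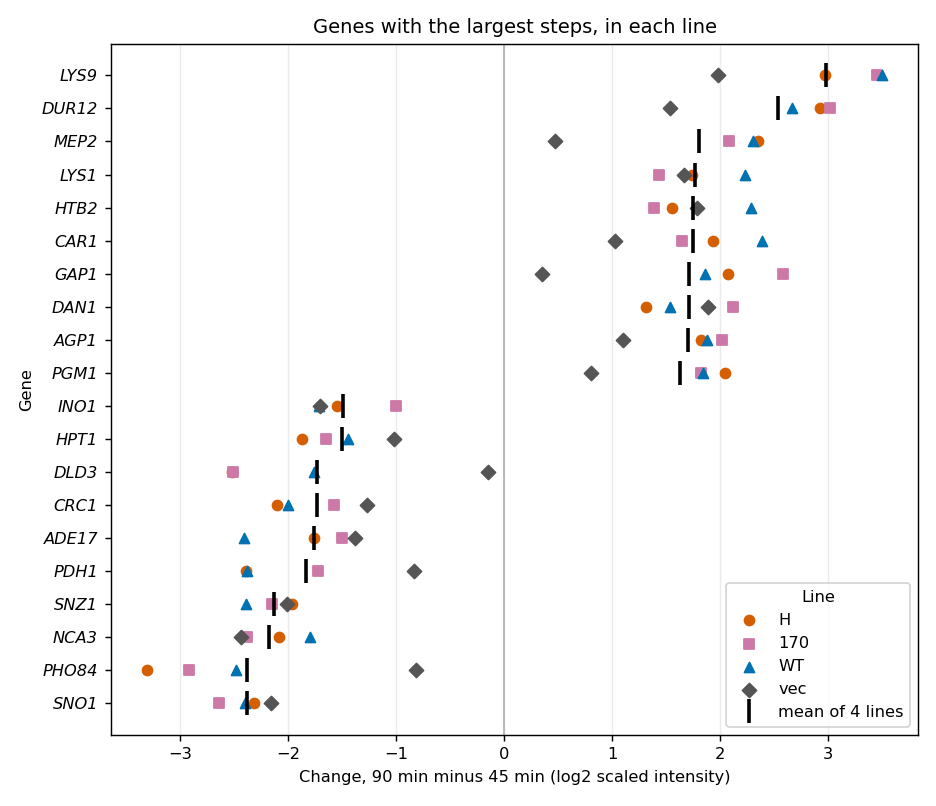
Change from 45 to 90 min (x axis, log2 scaled intensity at 90 min minus that at 45 min) of the 10 genes with the highest and the 10 with the lowest mean change among those eligible, with 1 point for each line (H, 170, WT, vec) and a black tick for the mean of the 4 lines. Eligible genes were called, had a symbol and moved the same way in all 4 lines, so that agreement was required. They were also well above background on all 4 arrays at 45 or 90 min. LYS9 had the highest mean (2.98) and SNO1 the lowest (-2.38), and vec lay nearest 0 for MEP2 (0.47), GAP1 (0.35), PHO84 (-0.81) and DLD3 (-0.15).

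The genes that rose most included ones of lysine synthesis, nitrogen scavenging and chromatin. LYS9 (YNR050C), a saccharopine dehydrogenase gene late in lysine synthesis, stood at 3.35, 4.20, 4.62 and 5.47 at 90 min in H, 170, WT and vec, against 0.37, 0.74, 1.12 and 3.49 at 45 min. Every line rose, by 2.98 ± 0.26 on average (limma, adjusted p = 0.0066), and the lowest level at 90 min, in H, lay below the level of vec at 45 min. DUR12, the urea amidolyase gene also written DUR1,2, followed with 2.54 ± 0.25 (adjusted p = 0.0082), standing at 0.84, 0.61, 1.08 and 2.34 at 90 min against -2.08, -2.41, -1.58 and 0.80 at 45 min. The ammonium permease gene MEP2 (1.81 ± 0.33), the arginase gene CAR1 (1.75 ± 0.21) and the amino acid permease genes GAP1 (1.72 ± 0.35) and AGP1 (1.71 ± 0.16) rose as well. LYS1 (1.77 ± 0.13) of lysine synthesis, the histone H2B gene HTB2 (1.75 ± 0.15) and PGM1 (1.63 ± 0.21), a phosphoglucomutase gene, complete the list with DAN1 (1.72 ± 0.14), a cell wall mannoprotein gene of cells short of oxygen. DAN1 was well above background on 3 of 4 arrays at 45 min. These 10 genes rose in 4 of 4 lines, as the choice required, with adjusted p from 0.0066 to 0.019 (limma).

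The genes that fell most included ones of vitamin B6, phosphate and purine metabolism. SNO1 and SNZ1, neighbours on their chromosome whose products make vitamin B6, fell by about the same amount. SNO1 stood at -2.07, -2.87, -2.15 and -3.19 at 90 min in H, 170, WT and vec, against 0.24, -0.23, 0.25 and -1.04 at 45 min (-2.38 ± 0.10, adjusted p = 0.001), and SNZ1 at 2.82, 2.33, 2.37 and 1.19 at 90 min, against 4.78, 4.48, 4.75 and 3.20 at 45 min (-2.13 ± 0.09, adjusted p = 0.0011; limma). All 4 arrays at 90 min lay below all 4 at 45 min for both genes. PHO84, the high-affinity phosphate transporter gene, changed by -2.38 ± 0.40, with levels of -1.98, -2.46, -1.86 and -2.32 at 90 min and 1.32, 0.45, 0.62 and -1.51 at 45 min. Its fall was smallest in vec, where the level at 45 min was lowest. NCA3 (-2.17 ± 0.12), the purine genes ADE17 (-1.76 ± 0.18) and HPT1 (-1.50 ± 0.14), the carnitine carrier gene CRC1 (-1.74 ± 0.15), DLD3 (-1.73 ± 0.40), PDH1 (-1.83 ± 0.27) and the inositol synthesis gene INO1 (-1.49 ± 0.14) make up the rest. Each fell in 4 of 4 lines, again as required. Of 40 called genes, 38 named for the size or course of their change and CLN2 and NDD1 added after their values were seen, 14 still did without line H (LYS1, HTB2, DAN1, SNO1, NCA3, SNZ1, CRC1 and HPT1 among those listed so far). Without 170 28 did, without WT 34 and without vec 40.

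**Figure D2:**
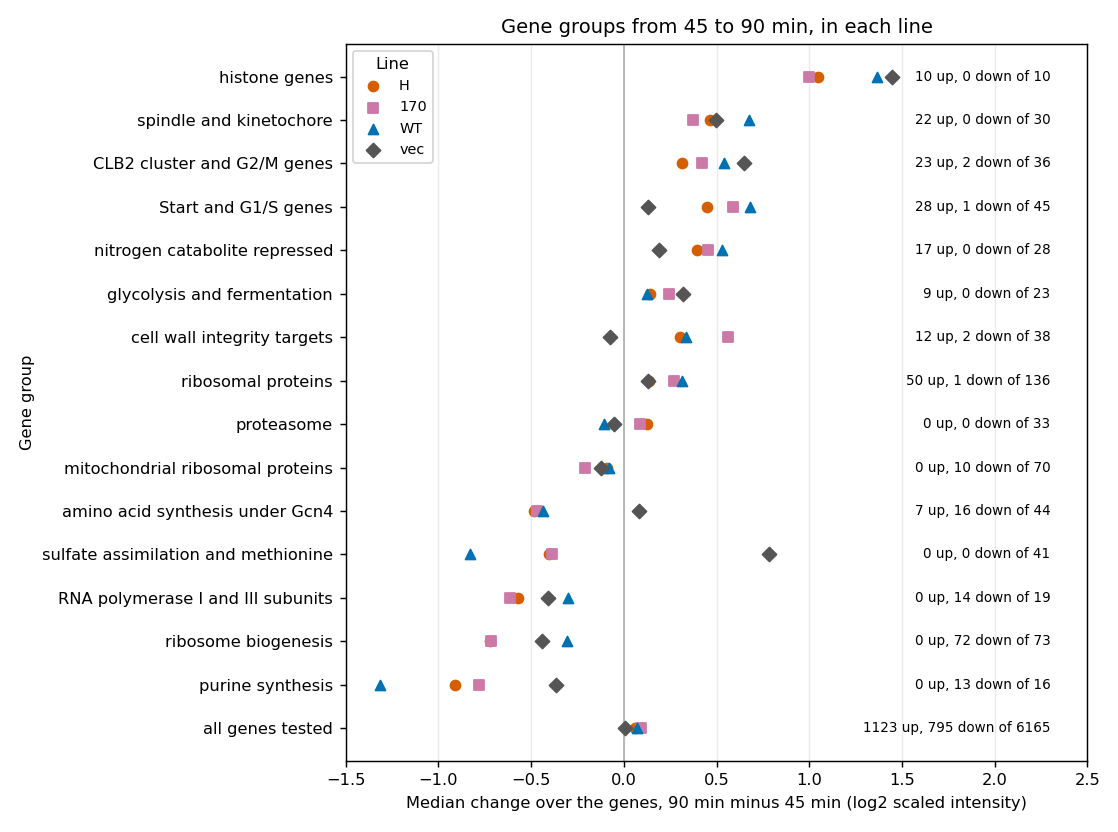
Median change from 45 to 90 min over the genes of each of the groups named at the left and over all genes tested (x axis, log2 scaled intensity), with 1 point for each line (H, 170, WT, vec), and at the right the number of genes called higher and lower (adjusted p under 0.05) of those measured. Histone genes had the highest medians, from 1.0 to 1.44, and for the sulfate and methionine genes H, 170 and WT (-0.41, -0.39 and -0.83) lay apart from vec (0.78).

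Histone genes rose together. All 10 were called higher (against 18.2% of all genes), with a median change of 1.22, and 10 of 10 stood higher at 90 min in every line. HTB2 stood at 0.73, 0.62, 1.70 and 2.65 at 90 min in H, 170, WT and vec, against -0.83, -0.77, -0.59 and 0.87 at 45 min. HTA2, a histone H2A gene and its neighbour, changed by 1.53 ± 0.13, HHF2 and HHF1, which encode histone H4, by 1.52 ± 0.12 and 1.44 ± 0.12, and HHT1, a histone H3 gene, by 1.20 ± 0.11 (limma, adjusted p = 0.0066 each). Histone copies are close in sequence, so probes may not keep them apart. Between 0 and 45 min 7 of the 10 had fallen and 3 had risen, against 42.8% and 30.2% of all genes. The median level of the group over the lines was 2.41, 1.62, 2.89 and 2.56 at 0, 45, 90 and 150 min. In H and 170 the medians at 90 min, 2.19 and 2.46, were close to the 2.20 and 2.43 at 0 min, while in WT and vec they were higher at 90 min than at 0 min (3.91 at 90 min and 2.67 at 0 min in vec). The group kept 7 calls without H and 9 without 170 or WT.

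Genes of the other cell cycle waves rose by less. Of 45 Start and G1/S genes 28 rose (62.2%, against 18.2% of all genes, with a median of 0.44). The G1 cyclin gene CLN1 stood at -0.79, -1.14, -0.01 and 0.17 at 90 min in H, 170, WT and vec, against -2.47, -2.57, -1.74 and -0.47 at 45 min (1.37 ± 0.19, limma adjusted p = 0.011). PCL1, a cyclin gene (1.43 ± 0.26), the S-phase cyclin gene CLB6 (1.13 ± 0.30) and the repressor gene YOX1 (1.44 ± 0.28) were among those that rose, and CLB6 was lower at 90 min in vec alone. Of these 45 genes, 41 had already risen from 0 to 45 min, against 30.2% of all genes, and 26 rose again, against 4.85%. Among 36 genes of the CLB2 cluster and G2/M, 23 rose and 2 fell, WTM1 and PHO3 (median 0.44). The mitotic cyclin gene CLB2 stood at -3.49, -4.03, -2.84 and -2.18 at 90 min and -4.17, -4.69, -3.94 and -3.76 at 45 min, and rose in every line (1.01 ± 0.17). CLB1 (0.76 ± 0.18), the mitotic transcription factor gene SWI5 (0.81 ± 0.13) and CHS2 (0.74 ± 0.08), the chitin synthase gene of the septum, rose too. NDD1, the gene of an activator of the CLB2 cluster and named after its values were seen, had changed by 0.11 from 0 to 45 min and then rose by 0.75 ± 0.12. Of 30 spindle and kinetochore genes 22 rose and none fell (median 0.49), the tubulin genes TUB1 (0.81 ± 0.08), TUB2 (0.76 ± 0.08) and TUB3 (0.85 ± 0.09), SPC97 and SPC98 of the gamma-tubulin complex (0.83 ± 0.11 and 0.95 ± 0.10) and DAM1 (0.76 ± 0.07) among them. Without H, 0 of the G1/S, 0 of the CLB2 and 0 of the spindle genes passed, and without 170, 2, 8 and 13 rose. Without WT 10, 10 and 12 rose. Of the G1/S, CLB2 and spindle genes, 30 of 45, 28 of 36 and 25 of 30 stood higher at 90 min in all 4 lines, against 30.9% of all genes.

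Ribosome biogenesis genes fell, having risen before. Of 73 measured, 72 were called lower (against 12.9% of all genes) and UTP6 was not, and all 73 stood lower at 90 min in every line, against 21.2% of all genes. All 73 had risen from 0 to 45 min, against 30.2% of all genes. NSR1, which encodes a nucleolin-like protein, stood at 2.50, 2.51, 2.98 and 2.50 at 90 min in H, 170, WT and vec, against 3.44, 3.39, 3.49 and 3.23 at 45 min (-0.77 ± 0.09, limma adjusted p = 0.0093). It kept 75.8% of its early rise. RRP5 (-0.87 ± 0.17), DHR2 (-0.86 ± 0.16), UTP20 (-0.76 ± 0.16), RPF1 (-0.75 ± 0.16) and CIC1 (-0.71 ± 0.12) were the others with the largest falls. The median level of the group was -1.26, 0.88, 0.34 and 0.01 at 0, 45, 90 and 150 min. Its median step was -0.72, -0.72, -0.31 and -0.44 in H, 170, WT and vec. Of 19 genes of RNA polymerases I and III, 14 fell and none rose (median -0.50), with RPA135 and RPA190 of polymerase I at -0.68 ± 0.11 and -0.61 ± 0.10 and RPC53 and RPO31 of polymerase III at -0.58 ± 0.08 and -0.56 ± 0.09. Without H 0 genes of either group passed, without 170 3 biogenesis and 0 polymerase genes, and without WT 62 and 12.

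Ribosomal protein genes, of which 135 of 136 had risen by 45 min (against 30.2% of all genes), rose further in part. In the step 50 rose (36.8%, against 18.2% of all genes) and 1, RPL18B, fell (median 0.20). At 90 min 96 stood higher and 2 lower in all 4 lines. RPS22B was the highest, at 2.86, 3.19, 3.05 and 3.28 at 90 min in H, 170, WT and vec, against 2.18, 2.45, 2.25 and 2.92 at 45 min (0.65 ± 0.09, limma adjusted p = 0.011). RPL18B changed by -0.49 ± 0.13. The direction of the group held under each scaling, with medians of 0.13 with median scaling and 0.12 with quantile normalization, but 26 and 21 genes then rose. Without H or 170 0 passed, and without WT 3. Many of these genes are near-identical pairs. Of 70 mitochondrial ribosomal protein genes none rose and 10 fell (14.3%, near the 12.9% of all genes, with a median of -0.14). With median scaling 26 fell, and 0 passed without H or 170 and 1 without WT.

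Genes of nitrogen catabolite repression rose after an early fall. Of 28, 17 rose (60.7%, against 18.2% of all genes) and none fell (median 0.39). From 0 to 45 min 23 of the 28 had fallen, against 42.8% of all genes. MEP2 stood at 0.54, 0.50, 1.36 and 1.46 at 90 min in H, 170, WT and vec, against -1.81, -1.59, -0.94 and 0.98 at 45 min, and MEP3, another ammonium permease gene, at 0.10, 0.03, 0.25 and 0.22 at 90 min, against -1.46, -1.69, -1.34 and -0.32 at 45 min (1.35 ± 0.20, limma adjusted p = 0.012). In both, vec was highest at 45 min and rose least. GAP1 stood at 1.56, 1.28, 2.17 and 2.22 at 90 min and -0.52, -1.31, 0.32 and 1.87 at 45 min. CAR1 and CAR2, the arginase and ornithine transaminase genes of arginine breakdown, rose by 1.75 ± 0.21 and 1.27 ± 0.14. The allantoin genes DAL1, DAL2, DAL3, DAL4, DAL5 and DAL7, the urea permease gene DUR3, GLN1, PUT1, CAN1 and GAT1 rose as well. The group median was 0.20, -1.31, -0.82 and -0.18 at 0, 45, 90 and 150 min. Without H 1 passed, without 170 5, without WT 7 and without vec 20.

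Amino acid synthesis genes under Gcn4 changed both ways. Of 44, 7 rose (15.9%) and 16 fell (36.4%), against 18.2% and 12.9% of all genes, and 21 were not called. The median was -0.32, and 30 of the 44 had fallen from 0 to 45 min, against 42.8% of all genes. The 7 that rose were LYS1, LYS2, LYS4, LYS9, LYS12 and LYS20 of lysine synthesis and ASN1, an asparagine synthetase gene. LYS12, the homoisocitrate dehydrogenase gene, stood at 4.47, 5.08, 5.40 and 5.86 at 90 min in H, 170, WT and vec, against 3.38, 3.83, 3.75 and 4.72 at 45 min (1.28 ± 0.11, limma adjusted p = 0.0066). The homocitrate synthase gene LYS21 was not called. The 16 that fell were HIS1, HIS4 and HIS5 of histidine synthesis, ARG3, ARG8 and CPA1 of arginine synthesis, LEU4, ILV3 and ILV6 of branched-chain synthesis, GCV1, GCV2 and GCV3 of glycine cleavage, ASN2, SER1, SNZ1 and SNO1. Median steps were -0.48, -0.47 and -0.44 in H, 170 and WT and 0.08 in vec. Without H 2 rose and 2 fell, without 170 5 and 4, without WT 6 and 8, and without vec 7 and 27.

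Purine synthesis genes fell. Of 16, 13 were called lower (81.2%, against 12.9% of all genes) and none higher (median -0.83), with ADE3, ADE16 and IMD2 not called. ADE17, which encodes the enzyme of the last steps to inosine monophosphate, stood at 0.21, 0.14, 0.19 and -0.14 at 90 min in H, 170, WT and vec, against 1.97, 1.64, 2.60 and 1.25 at 45 min. The 4 values at 90 min lay close together and below all 4 at 45 min. ADE57, also written ADE5,7, changed by -1.12 ± 0.17, ADE1 by -1.08 ± 0.15, ADE4, the gene of the first enzyme of the pathway, by -1.04 ± 0.15 and ADE13 by -0.95 ± 0.22. The group median was 0.57, 1.62, 0.59 and 0.58 at 0, 45, 90 and 150 min. Without H 0 passed, without 170 2 and without WT 8. HPT1, the purine salvage gene, stood at 0.76, 0.84, 1.46 and 1.22 at 90 min and 2.63, 2.50, 2.90 and 2.24 at 45 min, and at a mean of 0.37 at 0 min and 0.40 at 150 min.

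Of 22 phosphate regulon genes 9 fell (40.9%, against 12.9% of all genes) and none rose (median -0.23). PHO84 and PHO89, both phosphate transporter genes, changed by -2.38 ± 0.40 and -1.22 ± 0.30, the acid phosphatase genes PHO11 and PHO12, close copies, by -0.88 ± 0.16 and -0.89 ± 0.15, and VTC1 of the polyphosphate synthesis complex by -0.75 ± 0.16. SPL2, a late member, changed by -1.36 ± 0.30 after 0.08 between 0 and 45 min. PHO5, the main repressible acid phosphatase gene, was not called. On the slide of H and WT alone 9 fell, but without H or 170 0 passed and without WT 1.

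In carbon metabolism, 9 of 23 glycolysis and fermentation genes rose (39.1%, against 18.2% of all genes) and none fell. Their median was 0.25, and 0.13 with quantile normalization. HXK2, the main hexokinase gene, stood at 2.90, 3.35, 3.61 and 4.19 at 90 min in H, 170, WT and vec, against 2.21, 2.22, 2.65 and 3.43 at 45 min (0.88 ± 0.10, limma adjusted p = 0.0082). ENO1 (0.61 ± 0.09), PGK1 (0.50 ± 0.14) and PDC5 (0.35 ± 0.07) rose with it. Of 27 gluconeogenic and glucose-repressed genes 2 rose, SUC2 and GAL1 (7.41%), and 7 fell (25.9%, against 12.9% of all genes, with a median of -0.10). The fatty acid oxidation genes POX1 and POT1 changed by -1.43 ± 0.22 and -1.06 ± 0.21, the lactate permease gene JEN1 by -1.13 ± 0.20 and the alcohol dehydrogenase gene ADH2 by -1.07 ± 0.20. ALD4, the mitochondrial aldehyde dehydrogenase gene, stood at 1.64, 2.37, 1.55 and 0.92 at 90 min and 3.16, 2.86, 3.12 and 2.46 at 45 min (-1.28 ± 0.20). Of 49 respiration and TCA cycle genes 26.5% were called, fewer than the 31.1% of all genes, with 4 higher and 9 lower (median -0.08). CIT1 (-0.77 ± 0.21), IDH1 (-0.77 ± 0.16) and IDH2 (-0.55 ± 0.12), which encode enzymes of the first steps of the cycle, were among the 9. Without H 0 glycolysis genes, 1 gluconeogenic gene and 0 respiration genes passed, without 170 2, 5 and 2, and without WT 3, 5 and 3.

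Stress genes showed little common change over the 4 lines. Of 60 general stress genes under Msn2 and Msn4 6 rose (10%) and 7 fell (11.7%), both under the shares of all genes, with a median of 0.00. Between 0 and 45 min 50 of the 60 had fallen, against 42.8% of all genes. Of 34 Hog1 osmostress targets 5 rose (14.7%) and 7 fell (20.6%), against 18.2% and 12.9% of all genes. Their median was 0.15, and 11 of the 34 are in the general stress group too. RTC3 stood at 1.26, 2.04, -1.53 and -4.03 at 90 min in H, 170, WT and vec, against 0.78, -0.01, -3.86 and -4.78 at 45 min (1.41 ± 0.34, limma adjusted p = 0.028), so levels in vec and WT lay well below those in H and 170 at both times. GRE2 (0.85 ± 0.16) rose in 4 of 4 lines, and HOR7 (-0.85 ± 0.09) fell in 4 of 4. GPD1, the glycerol-3-phosphate dehydrogenase gene, STL1, the glycerol importer gene, HSP12 and the catalase gene CTT1, named after their values were seen, did not pass. GPD1 stood at 3.86, 4.13, 2.99 and 0.07 at 90 min and 4.15, 3.51, 1.56 and -1.25 at 45 min, with only H lower at 90 min (0.77 ± 0.29, adjusted p = 0.089). STL1 stood at -0.97, -1.71, -5.26 and -7.39 at 90 min and -1.47, -3.54, -8.48 and -7.85 at 45 min (1.50 ± 0.47, adjusted p = 0.057), and 1 of its 4 arrays at 45 min was not well above background. HSP12 differed by 0.64, -0.16, -0.01 and -2.93 in H, 170, WT and vec. Of 29 genes of the HOG pathway itself 5 rose (17.2%, near the share of all genes) and 1, RCK1, fell, and without H or 170 RCK1 alone passed. Among chaperones under Hsf1 1 of 30 rose, HSP104 (0.85 ± 0.24), with median steps of 0.92, -0.03, 0.66 and -0.20 in H, 170, WT and vec, and 20 rose on the slide of H and WT alone. None of 33 proteasome genes passed. Without H 0 general stress genes and 0 Hog1 targets passed, without 170 1 and 2, and without WT 6 and 5.

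Of 38 genes on a list of cell wall integrity targets and other cell wall genes 12 rose (31.6%, against 18.2% of all genes). The fallers were GSC2 and PRM5 (5.26%, against 12.9%). DAN1, the mannoprotein gene of cells short of oxygen, had the highest step on the list, so the share is not one of integrity targets alone. Median steps were 0.302, 0.562 and 0.335 in H, 170 and WT and -0.075 in vec. The median over the 4 lines was 0.29, and 24 were not called, SLT2, PST1, FKS1, CHS3, KDX1 and CWP1 among them. TIR3, a mannoprotein gene, changed by 1.40 ± 0.19, SRL1 by 1.23 ± 0.14 and CIS3 by 0.69 ± 0.07. CIS3 stood at 4.28, 4.34, 4.45 and 4.51 at 90 min in H, 170, WT and vec, against 3.69, 3.69, 3.74 and 3.70 at 45 min, with little spread at either time. The a-factor genes MFA1 and MFA2 fell, with changes of -1.08 ± 0.13 and -0.60 ± 0.13, as did BAR1 (-0.31 ± 0.09), the gene of the protease that degrades alpha-factor, while 4 of the 7 a-specific genes and all 4 alpha-specific genes were not called. MFA1 stood at 0.24, 0.16, 0.64 and 1.76 at 90 min and 1.46, 0.76, 1.86 and 3.02 at 45 min. Of 32 meiosis and sporulation genes 3 rose (9.38%) and 5 fell (15.6%), NDT80 (-0.91 ± 0.08) by most, and without H 0 of these passed, without 170 2 and without WT 4. The thiamine genes THI5, THI11, THI12 and THI13, near-identical copies that probes may not separate, changed by 0.82 ± 0.22 to 1.02 ± 0.23. They were among 7 of 24 genes of thiamine and biotin synthesis and uptake that rose (29.2%). The share that fell, 4 genes or 16.7%, was near the 12.9% of all genes. Without H 2 cell wall genes rose and 0 a-specific genes or thiamine and biotin genes passed, and without 170 6 cell wall genes rose, 3 a-specific genes fell and 0 thiamine and biotin genes passed. Without WT 9 cell wall genes rose and 1 fell, 1 a-specific gene fell and 0 thiamine and biotin genes passed.

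The called genes were then sorted by what they had done before. The change from 0 to 45 min shares the arrays at 45 min with the step, so an error of those arrays enters both with opposite sign, and the sorting is a description with no test. Of the 1918 genes, 1037 turned back a called early change, 475 went on in the same direction, 382 started late (not called early, with a mean early change under 0.5 log2 units), and 24 were of neither kind. Of 1860 genes that had risen early (30.2% of all genes) 476 fell again (25.6%) and 299 rose further (16.1%), and of 2636 that had fallen early (42.8%) 561 rose again (21.3%) and 176 fell further (6.68%). For most early changes the step was not called, in 1085 of the genes that had risen and 1899 of those that had fallen. Without H the counts were 14 turned back, 7 continued and 9 late, without 170 117, 77 and 80, and without WT 463, 136 and 154.

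Turning back was partial. The 561 genes that fell and then rose (9.1% of all genes) had median levels of -1.38, -2.30, -1.86 and -1.75 at 0, 45, 90 and 150 min, and the median gene kept 49.9% of its early fall at 90 min. At 90 min 87 of them had passed their level at 0 min. The 476 genes that rose and then fell (7.72%) had medians of -1.27, 0.34, -0.17 and -0.50, with 67.7% of the early rise kept, and 31 had passed their level at 0 min. In both sets the median at 150 min, on arrays that neither change used, lay nearer to the level at 0 min than at 90 min. The 299 genes that rose further (4.85%) had medians of -1.07, -0.26, 0.20 and 0.14, and the 176 that fell further (2.85%) of -0.17, -1.24, -1.83 and -1.91.

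Among genes that rose and then fell, PHO84, NCA3, HPT1 and ADE17 had the largest changes both ways. NCA3 averaged -4.41, -0.58, -2.76 and -3.99 at 0, 45, 90 and 150 min, and HPT1 0.37, 2.57, 1.07 and 0.40. TAH1, which encodes a cofactor of the chaperone Hsp90, ALD4, the protein kinase gene RCK1 and CPP3 were next. RCK1 stood at -1.87, -1.35, -2.51 and -4.27 at 90 min in H, 170, WT and vec, against -0.36, -0.34, -1.39 and -3.04 at 45 min, so it fell in each line while the order of the lines at both times was H and 170 above WT above vec. Among genes that fell and then rose, DUR12, MEP2, AGP1, LYS1 and MEP3 were joined by CSS1, the mannoprotein gene HPF1 and the glucokinase-like gene EMI2. HPF1 stood at -0.80, -1.51, -1.16 and -1.95 at 90 min and -2.33, -2.98, -2.69 and -3.26 at 45 min, and rose by nearly the same amount in each line (1.46 ± 0.07, limma adjusted p = 0.0019). CSS1 stood at -1.62, -2.23, -2.10 and -2.81 at 90 min and -3.19, -3.81, -3.68 and -4.08 at 45 min (1.50 ± 0.08). AGP1 averaged 2.85, 0.14, 1.85 and 2.11 at 0, 45, 90 and 150 min.

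**Figure D3:**
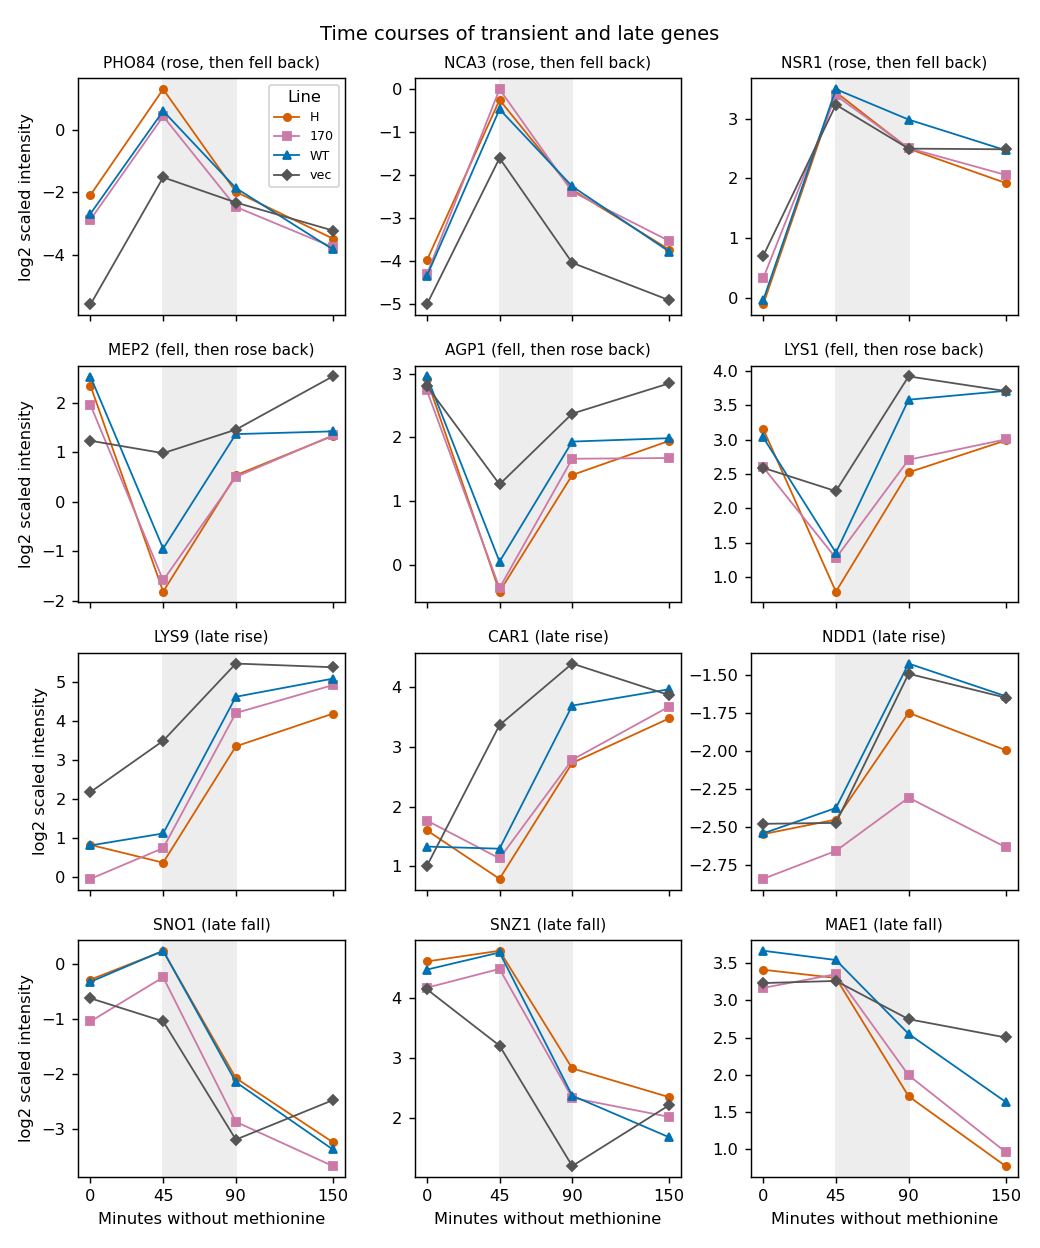
Levels of 12 genes (y axis, log2 scaled intensity) at 0, 45, 90 and 150 min without methionine (x axis) in lines H, 170, WT and vec, 1 array a point, with the step from 45 to 90 min shaded. The rows show genes that rose and fell back, genes that fell and rose back, late rises and late falls. PHO84 peaked at 45 min in each line, and SNZ1 fell from 45 to 90 min in each line, with changes from -2.39 to -1.96.

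Of the late genes 253 rose (4.1% of all genes) and 129 fell (2.09%), while the balance over all calls turned round with median scaling. The 253 had medians of -1.80, -1.69, -1.24 and -1.27 at 0, 45, 90 and 150 min, and the 129 of -0.87, -0.90, -1.34 and -1.41. The late rises with the largest steps were LYS9, CAR1, DAN1, YHP1, RTC3, LYS12, HEM13 and MNN1. YHP1, the gene of a homeobox repressor of the cell cycle, stood at -3.18, -3.36, -2.56 and -1.07 at 90 min in H, 170, WT and vec, against -4.71, -4.18, -4.33 and -2.84 at 45 min. HEM13, of heme synthesis, changed by 1.21 ± 0.14 and MNN1, a mannosyltransferase gene, by 1.18 ± 0.15. Late rests on a small mean early change, which opposite changes in single lines can also give. In 58 of the 253 rises and 26 of the 129 falls the 4 lines moved one way in both changes. LYS9 and CAR1, for example, are late on average only, since in vec both had risen by 45 min, LYS9 to 3.49 and CAR1 to 3.36. For the other late genes this was not tested line by line. Among late falls, SNO1, SNZ1, PDH1, SPL2, NQM1, MAE1, REE1 and MFA1 led. MAE1, the malic enzyme gene, stood at 1.71, 1.99, 2.55 and 2.75 at 90 min and 3.30, 3.35, 3.54 and 3.26 at 45 min (-1.12 ± 0.18, limma adjusted p = 0.013). NQM1, a transaldolase gene, changed by -1.21 ± 0.07, and it fell by similar amounts in the 4 lines.

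Whether the step differed between lines was tested directly. No gene passed for H and 170 minus WT and vec (limma, 0 of 6165, with 580, or 9.41%, at an unadjusted p under 0.05), nor for H, 170 and WT minus vec (0, with 769, or 12.5%). In simulated data with 200 changed genes, the first test found 23.9% of differences of 1 log2 unit and 59.1% of 2. The second found 0% and 33.3%. Finding no gene therefore does not show that the lines shared the step. For the second difference 3 to 104 genes passed under 5 of the alternatives. In single lines, 265, 302 and 290 genes changed at least 2-fold in H, 170 and WT, against 158 in vec, counts that carry no test.

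**Figure D4:**
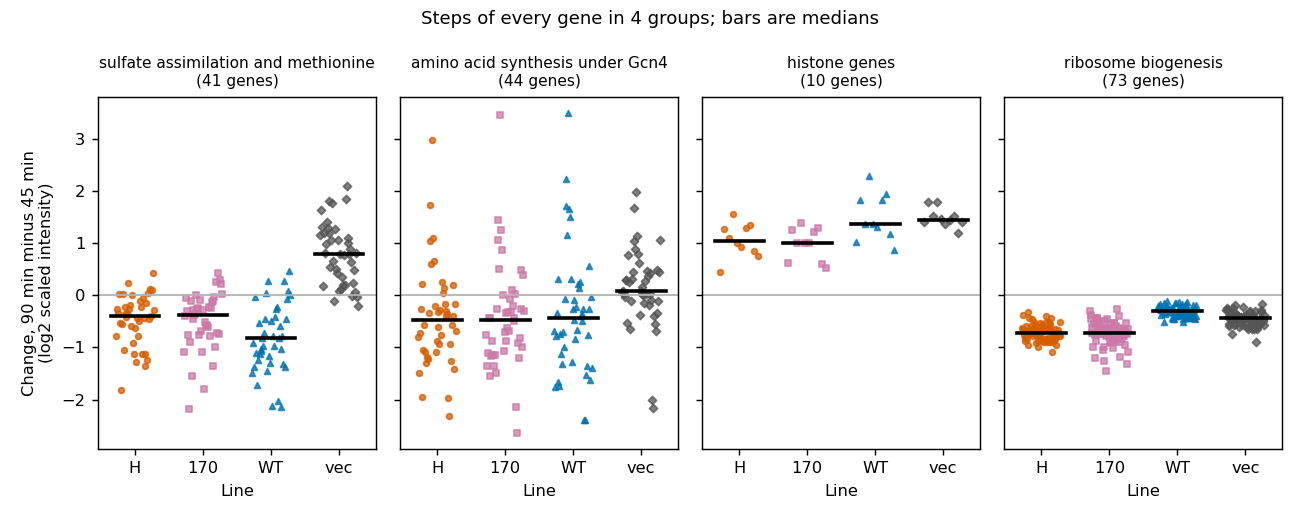
Change from 45 to 90 min (y axis, log2 scaled intensity) of every gene measured in 4 groups, with 1 point a gene, lines H, 170, WT and vec along the x axis, and black bars for the medians. In the sulfate and methionine group H, 170 and WT have medians of -0.41, -0.39 and -0.83 and vec has 0.78. In the Gcn4 group they have -0.48, -0.47 and -0.44 and vec has 0.08, while histone genes rise and ribosome biogenesis genes fall in all 4 lines.

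Most sulfate and methionine genes stood lower at 90 min than at 45 min in the HOG1 lines and higher in vec. None of 41 was called in the mean step (median -0.15), yet 31 of 41 (75.6%) were lower in H, 170 and WT and higher in vec, against 5.16% of all genes. The methionine synthase gene MET6 stood at 2.29, 1.78, 2.27 and 3.54 at 90 min in H, 170, WT and vec, against 4.10, 3.96, 3.98 and 2.73 at 45 min. Its step in H, 170 and WT minus that in vec was -2.71 ± 0.23 (limma, adjusted p = 0.088). SAM2, an S-adenosylmethionine synthetase gene, stood at 1.58, 1.33, 1.37 and 3.03 at 90 min and 2.70, 2.42, 2.66 and 1.98 at 45 min, with a difference of -2.22 ± 0.17 (adjusted p = 0.064). The methionine permease gene MUP3 (-2.71 ± 0.36, adjusted p = 0.11), the cystathionine beta-lyase gene STR3 (-2.52 ± 0.33, adjusted p = 0.11) and MET13 (-2.53 ± 0.24, adjusted p = 0.11) differed in the same direction without passing. MET16, of sulfate reduction and named after its values were seen, stood at 1.01, 1.18, 0.41 and 1.66 at 90 min and 1.37, 1.63, 1.44 and -0.15 at 45 min. Without vec, 24 of the 41 genes fell and 1 rose from 45 to 90 min. By 150 min MET6 averaged 2.85 over the lines and MET16 1.31.

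HO, whose endonuclease starts mating-type switching and which was chosen after its values were seen, differed the other way. It stood at -3.90, -4.13, -3.70 and -2.13 at 90 min in H, 170, WT and vec, against -5.29, -5.65, -5.44 and -1.97 at 45 min. Over the 4 lines it rose by 1.12 ± 0.31 (limma, adjusted p = 0.042), and its step in H, 170 and WT minus that in vec was 1.70 ± 0.19, which did not pass (adjusted p = 0.11). Line vec stood above the other lines at both times, and HO was one of 624 genes (10.1% of all genes) higher at 90 min in H, 170 and WT and lower in vec. Levels in vec also differed from those of the other lines at 45 min for genes that rose in all, such as LYS9, CAR1 and HTB2, and whether lines differ in pace was not tested.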

How the data were processed

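Total RNA of 16 yeast samples, 4 lines at 0, 45, 90 and 150 min, was read on Agilent single-colour (Cy3) arrays, 1 per line and time. The labels do not say whether the times of a line came from 1 culture. The deposited scanner files hold intensity values per spot, and per the file headers they were made with Agilent Feature Extraction 10.7.1.1, which subtracts background to give the processed signal. A deposited table of log2 values for 6107 of 6256 probes has a median of 0 for each probe within each slide. It served as an alternative, its steps correlating at 0.998 to 1.0 across probes with those of the scanner files, and the absolute level of its values stays unknown. How RNA was extracted and labelled is not given in the sources used here.

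Signals were put on the log2 scale and the 75th percentile of each array was subtracted. Spots of a probe were averaged, and of 28 genes with several probes the brightest was used. Genes well above background on at least 3 of the 16 arrays, of any line or time, were tested, 6165 of 6227. Names are those of the array, and 5738 systematic names matched RefSeq. For the step, linear models of limma 3.58.1 (R 4.3.3) held the line as a block and moderated variances by eBayes. Tests were two-sided, with Benjamini-Hochberg adjustment over all genes tested and a threshold of 0.05. Values after ± are standard errors from limma, in which each gene's spread over the lines is moderated toward that of all genes. They can therefore lie below or above the plain spread of the lines. Values for 1 line rest on 1 array at each time. In the comparison of vec with the other lines, vec is assumed to vary like them. The early change was fitted in the same way. The pairing comes from the lines. The scripts were tested on simulated data.

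Genes named are HOG1, MET3, the 10 highest and 10 lowest steps, the 8 largest of each kind of reversed or late gene, all moving one way in 4 of 4 lines, and up to 6 genes of each list. The difference between lines had no called gene to name, so its genes, and the others said to be so, were chosen after their values were seen. Members and gene lists were chosen with earlier results of these data known, and 1 gene was taken off the ribosomal protein list as misplaced. A few results are not reported here. The alternatives were other background corrections (normexp, offset 50), scalings, dim-probe filters, probe rules, variance models, array sets, thresholds, no line block, single slides and each line left out.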

Additional observations from a re-analysis of the deposited data

Results flagged for a closer look

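In 6 of 50 genes named outside the lists and in 3 of 39 list medians, the step of 1 line stood apart from the other lines by Dixon's 95% criterion. Chance gives about 1 in 20, and 328 of all 6165 genes met the criterion. Line vec stood apart in 4 of the genes. HOG1 changed by -0.11, -0.11 and -0.15 in H, 170 and WT, against 0.20 in vec. MEP2 changed by 2.35, 2.09 and 2.31 in H, 170 and WT, against 0.47 in vec, and MEP3 by 1.55, 1.72 and 1.59, against 0.54 in vec. CSS1 changed by 1.57, 1.58 and 1.58 in H, 170 and WT, against 1.27 in vec. Line 170 stood apart for ALD4, with -0.49, where H, WT and vec had -1.53, -1.57 and -1.54, and for MFA1, with -0.60, where they had -1.21, -1.22 and -1.27. Among the lists, the median of amino acid synthesis genes under Gcn4 was -0.48, -0.47 and -0.44 in H, 170 and WT, against 0.08 in vec. The median of oxidative stress genes was -0.15 in WT, where H, 170 and vec had 0.02, 0.05 and 0.03. The median of hexose transporter genes was 0.33 in 170, where H, WT and vec had 0.01, 0.01 and 0.03.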

How the results depend on the processing

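Leaving out 1 line at a time gave 33 to 2210 genes called in the step, 3752 to 4806 in the early change, 14 to 1183 reversed, 7 to 657 continued and 9 to 352 late genes. It gave 0 to 1 genes for H and 170 minus WT and vec, and 0 to 0 for H, 170 and WT minus vec. At an adjusted p under 0.01 the step had 154 genes, of which 55 were reversed, 32 continued and 47 late. Without the line block 0 genes were called, so 0 were reversed, continued or late, with 1573 at an unadjusted p under 0.05 (limma). The labels carry no replicate numbers, and the block is the line. On the slide of H and WT alone 679 genes were called, with 281 reversed, 243 continued and 133 late, and on the slide of 170 and vec alone 0 in each class, with 2056 in the early change. For H, 170 and WT minus vec, 104 genes passed with normexp, 30 with the strict dim-probe filter, 88 with an intensity trend and robust variance, 45 with all 16 arrays and 3 with the deposited table. The cause was not tested. The other scalings, filters and probe rules kept the step's count within 1.5 times of 1918. Of the values of named genes and list medians, 2654 comparisons kept their call or stayed within the spread of the lines, 915 lost the call, 25 gained one and 5 list medians moved beyond the spread. Of 192 named genes called, 0 changed sign. Of 26 not called 9 did under some alternative, MET3 (-0.859 to 0.627) and HOG1 (-0.126 to 0.046) among them, as did the medians of 13 of 39 lists. With 4 lines and 1 array each, the number of arrays limits the precision, and a 45-min array's error enters both changes.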

Other observations

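Smaller groups held a few called genes each, most at or near the shares of all genes called higher (18.2%) and lower (12.9%). Of 25 autophagy genes 23 had fallen from 0 to 45 min, against 42.8% of all genes. From 45 to 90 min 5 rose (20.0%), ATG7, ATG13, ATG14, ATG18 and ATG19, while none fell. ATG19, the receptor gene of the cytoplasm-to-vacuole pathway, changed by 0.85. Of 21 trehalose and glycogen genes all 21 had fallen early, against 42.8% of all genes. In the step TPS3, GLG2, PGM1 and UGP1 rose (19.0%) while NTH2 fell. Of 22 phospholipid and inositol synthesis genes 5 rose and 3 fell, INO1, ACC1 and OPI3, the last a methyltransferase gene of phosphatidylcholine synthesis, with OPI3 at -1.32. Of 24 amino acid permease genes AGP1, CAN1, GAP1, OPT2 and PTR2 rose, and AGP2, HIP1 and BIO5 fell. Of 37 oxidative stress genes 3 rose and 5 fell, the drug exporter gene ATR1 by most (-1.18). Of 26 ergosterol synthesis genes 2 rose and 3 fell, and of 24 genes of hexose transporters, sensors and their regulators 3 rose, HXT4, HXT15 and MIG2, and 2 fell, HXT14 and RGT2. Hexose transporter genes are alike in sequence, and probes may not keep them apart. Without line H none of the genes in these 7 groups passed (limma, adjusted p under 0.05).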
